A study of Mus musculus with 17 samples.

Results

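Krüppel-like factors are zinc-finger transcription factors, and 8 of their genes (Klf2, Klf3, Klf4, Klf6, Klf7, Klf9, Klf10 and Klf13) were read across 4 groups of sorted mouse brain myeloid cells. They were taken by gene symbol from the authors' deposited table, which lists 13769 genes, and all 8 were found. Every mouse was of the C57BL/6J strain, and the sorted populations carry the names µ and TAµ, which the labels do not spell out. The transplanted fractions, µ and TAµ with 3 libraries each, came from adult mice that had been given BU (not spelled out in the labels) and then GFP Lin- cells, 3 months before collection. Whether the cells sorted from these mice carried GFP is not in the labels, so the share of donor and host cells in them is unknown. The controls were adult control µ, from mice aged 5 months (3 libraries), and P10 TAµ, taken at postnatal day 10 (8 libraries). The design text gives 3 mice per group, and nothing in the labels ties the 8 P10 libraries to animals, so p-values measure the spread between libraries, part of which may be technical. Per its title, the study asked how far the brain myeloid cells that follow such a transplantation resemble microglia, the macrophages that reside in the brain.

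Krüppel-like factors bind GC-rich and CACCC-type DNA through C2H2 zinc fingers near the carboxyl end, a feature they share with the Sp factors. Their other ends differ and recruit activating cofactors such as Ep300 or repressing ones such as the Ctbp and Sin3 proteins, so that members can raise or lower similar target genes. In macrophages Klf2 and Klf4 are known for restraining inflammatory activation and Klf6 for promoting it, and several members are induced rapidly by serum, growth factors, stress or glucocorticoids.

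The promoters of Klf2, Klf4 and Klf6 are shown first, because these genes were the members lower in transplanted µ than in adult control µ. RefSeq promoter windows, from 250 bases before to 50 bases after the gene start on GRCm38.p6, matched 7 of the 8 members by symbol, the other being Klf10. The bases shown are those upstream of the starts in both RefSeq and GENCODE, 5′ to 3′ on the gene's strand, with matches to GGGCGG on either strand in capitals. They cover chr8:72318812-72319032 on the plus strand for Klf2, chr4:55532476-55532725 on the minus strand for Klf4 and chr13:5861239-5861481 on the plus strand for Klf6.
Klf2: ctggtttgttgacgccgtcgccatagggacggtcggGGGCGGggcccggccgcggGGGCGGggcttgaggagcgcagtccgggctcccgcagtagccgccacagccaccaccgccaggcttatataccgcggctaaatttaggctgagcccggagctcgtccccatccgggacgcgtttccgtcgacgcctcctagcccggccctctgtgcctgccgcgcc
Klf4: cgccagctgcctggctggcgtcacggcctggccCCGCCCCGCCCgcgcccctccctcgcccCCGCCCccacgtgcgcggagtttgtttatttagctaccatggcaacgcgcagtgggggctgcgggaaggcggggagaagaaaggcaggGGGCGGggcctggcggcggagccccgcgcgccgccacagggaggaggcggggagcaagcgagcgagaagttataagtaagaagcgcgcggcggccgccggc
Klf6: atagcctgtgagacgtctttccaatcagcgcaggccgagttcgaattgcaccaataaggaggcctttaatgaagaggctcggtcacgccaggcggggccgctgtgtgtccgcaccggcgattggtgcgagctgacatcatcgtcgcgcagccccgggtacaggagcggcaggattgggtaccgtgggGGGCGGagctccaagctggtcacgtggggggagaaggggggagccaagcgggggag
GGGCGG, the letters of a GC box, lay 214 and 195 bases upstream of the RefSeq start in Klf2. In Klf4 it lay at 217, 212, 189 and 101 bases, where the first pair of matches overlap, and in Klf6 at 63 bases. Over the whole windows GGGCGG was found in 6 of the 7 members, Klf9 being the exception, and in 35.9% of the 27025 promoter windows of the table. CACCC, read on both strands, was found in 5 of the 7 members (Klf2, Klf3, Klf7, Klf9 and Klf13) and in 56.7% of all windows. A match to CACCC shares a base with a GGGCGG match in Klf3 and in Klf13. TGANTCA, the letters of an AP-1 site, was found in Klf9, where it overlaps a CACCC match, and in 7.93% of all windows. TGACGTCA and the CArG box were in none of the 7 windows, against 1.88% and 1.57% of all. These matches describe letters in the windows and were not tested for binding.

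Levels are given per group on the log2 expression scale of the authors' deposited table, each with a standard error recovered from that table's fold changes and p-values. The table holds no value per library, so whether single libraries of different groups overlap cannot be given. The levels are not per length and are compared between groups of the same gene, never between genes. "Higher" and "lower" mean that the authors' deposited table gives a limma adjusted p under 0.05, and each log2 difference is the first-named group minus the second. Any difference among the 4 groups, tested by the moderated F, was called for 5 of the 8 members in the authors' deposited table, and for 52.2% of all genes, so the share of members is near that of the background. The 5 were Klf2, Klf4, Klf6, Klf10 and Klf13.

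**Figure D1:**
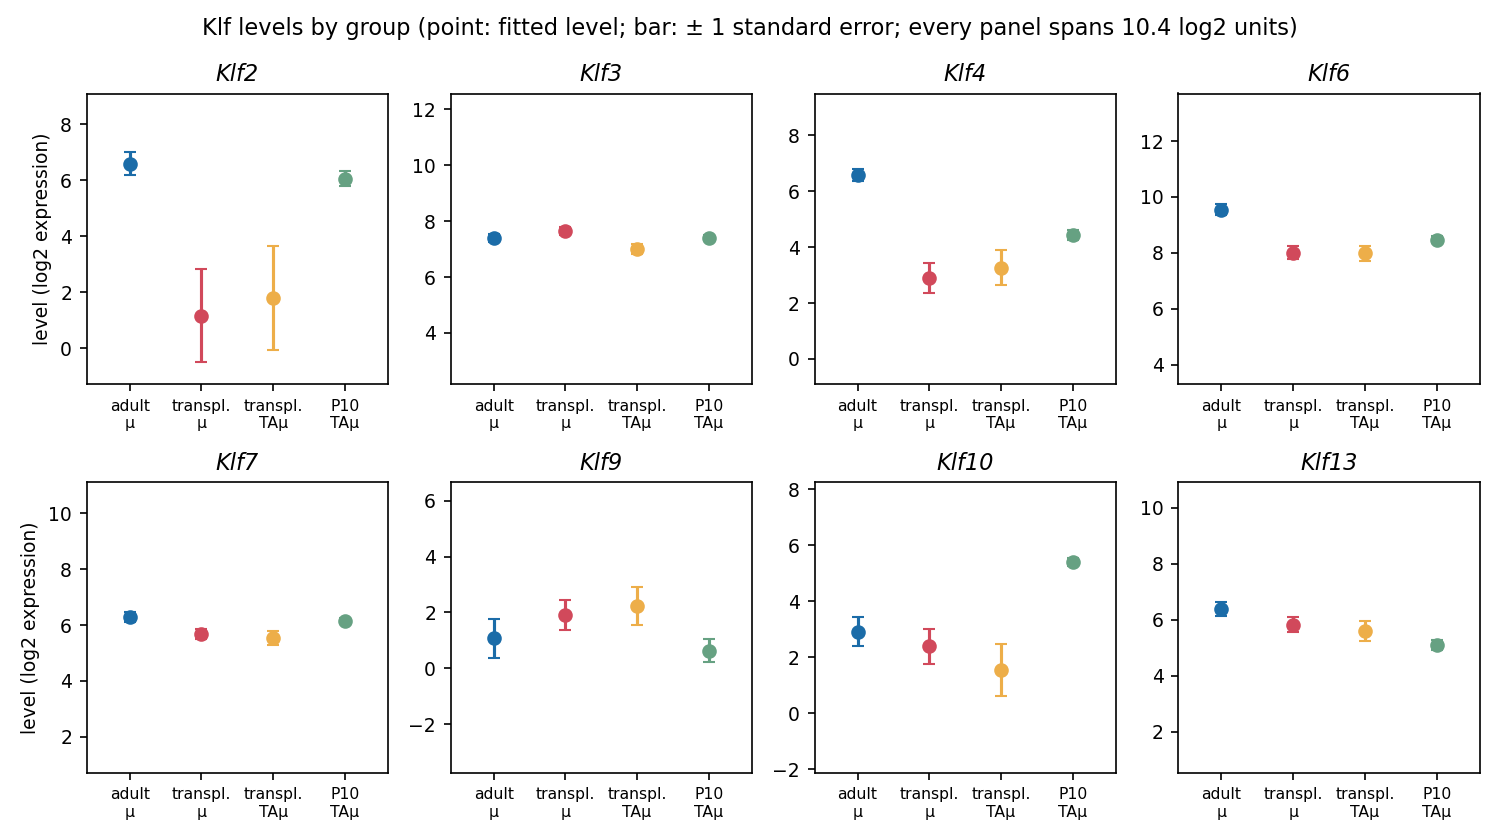
Fitted level of each Klf gene (y axis, log2 expression, the same span in every panel) in adult control µ, transplanted µ, transplanted TAµ and P10 TAµ (x axis), where points are group levels and bars are 1 standard error. Klf2, Klf4 and Klf6 stand highest in adult control µ, Klf10 stands at 5.42 in P10 TAµ against 1.55 to 2.91 elsewhere, and Klf3 keeps to a range of 0.66.

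Klf2, a factor that keeps lymphocytes and macrophages quiescent and that blood flow induces in endothelium, lies on chromosome 8 (72319033 to 72321656, plus strand, GRCm38). Its level was 6.60 ± 0.42 in adult control µ, 6.06 ± 0.26 in P10 TAµ, 1.80 ± 1.86 in transplanted TAµ and 1.16 ± 1.65 in transplanted µ. Both controls stood high and both transplanted fractions low, with standard errors in the transplanted fractions several times those in the controls. In the authors' deposited table Klf2 was lower in transplanted µ than in adult control µ by -5.43 ± 1.70 (43.2-fold, adjusted p = 0.0305), with a 95% interval from -9.01 to -1.85. It was also lower in transplanted µ than in P10 TAµ, at -4.90 ± 1.67 (adjusted p = 0.0457), in the authors' deposited table. Differences of similar size for transplanted TAµ did not pass, at -4.26 ± 1.87 against P10 TAµ (adjusted p = 0.102) and -4.80 ± 1.90 against adult control µ (adjusted p = 0.0643), in the authors' deposited table. Neither the controls nor the transplanted fractions passed against each other, with P10 TAµ minus adult control µ at -0.54 ± 0.50 and transplanted TAµ minus transplanted µ at 0.63 ± 2.48 in the authors' deposited table. The interval of the last difference, from -4.58 to 5.85, is wide enough to hold a large change either way. Both calls of Klf2 were lost at an adjusted p of 0.01. In bulk samples such as these, fewer cells that express a gene and less of its RNA per cell cannot be told apart.

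Klf4, which drives monocyte differentiation and takes part in alternative macrophage activation, lies on chromosome 4 (55527143 to 55532466, minus strand). Its level was 6.58 ± 0.22 in adult control µ, 4.44 ± 0.19 in P10 TAµ, 3.26 ± 0.62 in transplanted TAµ and 2.90 ± 0.54 in transplanted µ. Adult control µ stood alone at the top, P10 TAµ came next, and the transplanted fractions were lowest. Against adult control µ, Klf4 was lower in all 3 other groups in the authors' deposited table: by -3.68 ± 0.58 in transplanted µ (12.8-fold, adjusted p = 0.000511), -3.32 ± 0.66 in transplanted TAµ (adjusted p = 0.00128) and -2.15 ± 0.28 in P10 TAµ (adjusted p = 2.78e-05). No pair below adult control µ in this order passed. Transplanted TAµ minus P10 TAµ was -1.17 ± 0.65 (adjusted p = 0.194) and transplanted TAµ minus transplanted µ 0.36 ± 0.82 (adjusted p = 0.835) in the authors' deposited table. Transplanted µ minus P10 TAµ was -1.54 ± 0.57 (adjusted p = 0.0648) in the authors' deposited table.

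Klf6, a partner of NF-kB in inflammatory gene expression in macrophages, lies on chromosome 13 (5861482 to 5870394, plus strand). Its level was 9.54 ± 0.20 in adult control µ, 8.47 ± 0.13 in P10 TAµ, 8.01 ± 0.22 in transplanted µ and 7.98 ± 0.28 in transplanted TAµ. The order is that of Klf4 with smaller steps, except that the transplanted fractions, 0.03 apart, change places. In the authors' deposited table Klf6 was lower than in adult control µ by -1.53 ± 0.30 in transplanted µ (2.88-fold, adjusted p = 0.00225), -1.56 ± 0.34 in transplanted TAµ (adjusted p = 0.00246) and -1.06 ± 0.24 in P10 TAµ (adjusted p = 0.00226). Neither transplanted fraction passed against P10 TAµ, at -0.46 ± 0.26 for µ (adjusted p = 0.212) and -0.50 ± 0.30 for TAµ (adjusted p = 0.24), in the authors' deposited table.

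Klf10, first described as a gene that TGF-beta induces early and a repressor of growth, lies on chromosome 15 (38291463 to 38300706, minus strand). Its level was 5.42 ± 0.14 in P10 TAµ, 2.91 ± 0.52 in adult control µ, 2.39 ± 0.63 in transplanted µ and 1.55 ± 0.93 in transplanted TAµ. P10 TAµ stood apart from the other 3 groups, whose levels lay within 1.36 of each other. In the authors' deposited table Klf10 stood higher in P10 TAµ than it did in adult control µ by 2.51 ± 0.53 (5.68-fold, adjusted p = 0.00173). Against P10 TAµ the authors' deposited table has it lower in transplanted TAµ by -3.86 ± 0.94 (14.6-fold, adjusted p = 0.0059) and in transplanted µ by -3.03 ± 0.65 (adjusted p = 0.00297). Transplanted µ minus adult control µ was -0.52 ± 0.81 (adjusted p = 0.67) in the authors' deposited table, with a 95% interval from -2.23 to 1.19. Klf10 was the member whose call set P10 TAµ above adult control µ, whereas Klf4, Klf6 and Klf13 were lower there.

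Klf13, known from T lymphocytes as a factor that raises the chemokine gene Ccl5, lies on chromosome 7 (63886351 to 63938915, minus strand). Its level was 6.39 ± 0.25 in adult control µ, 5.82 ± 0.27 in transplanted µ, 5.59 ± 0.36 in transplanted TAµ and 5.10 ± 0.18 in P10 TAµ. The transplanted fractions lay between the controls. The ends of this order differed, with P10 TAµ lower than adult control µ by -1.29 ± 0.31 (2.44-fold, adjusted p = 0.00383) in the authors' deposited table, and no neighbouring pair passed. The steps were 0.56 ± 0.37 (adjusted p = 0.282), 0.23 ± 0.45 (adjusted p = 0.802) and 0.49 ± 0.40 (adjusted p = 0.381) from top to bottom in the authors' deposited table.

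Klf3, Klf7 and Klf9 were called in no comparison of the authors' deposited table. Klf3, a repressor that works through the Ctbp proteins, lies on chromosome 5 (64803388 to 64832901, plus strand). Its level was 7.66 ± 0.14 in transplanted µ, 7.41 ± 0.09 in P10 TAµ, 7.39 ± 0.15 in adult control µ and 7.0 ± 0.19 in transplanted TAµ. The gap between the transplanted fractions, -0.66 ± 0.24, had a p of 0.0135 before and 0.109 after adjustment in the authors' deposited table. An exon of Klf3 overlaps Gm20033 on the opposite strand, and the strand setting of the counting is not given in the sources used here, so their reads may not be separable.

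Klf7, known from axon outgrowth in neurons, lies on chromosome 1 (64029447 to 64122282, minus strand). Its level was 6.29 ± 0.17 in adult control µ, 6.16 ± 0.10 in P10 TAµ, 5.68 ± 0.19 in transplanted µ and 5.54 ± 0.24 in transplanted TAµ. Both transplanted fractions stood below both controls, and 4 differences between a transplanted fraction and a control ranged from -0.75 ± 0.30 to -0.48 ± 0.22 with adjusted p from 0.067 to 0.121 in the authors' deposited table. Exons of Klf7 overlap Gm13748 and Gm26649 on the opposite strand, which limits its values in the same way as those of Klf3. Centring each comparison on the median of all genes brought Klf7 past the threshold in 3 comparisons with adult control µ, at -0.79 ± 0.26 in transplanted µ, -0.84 ± 0.30 in transplanted TAµ and -0.54 ± 0.20 in P10 TAµ.

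Klf9, which glucocorticoids and thyroid hormone induce, lies on chromosome 19 (23141226 to 23168134, plus strand). Its level was 2.24 ± 0.68 in transplanted TAµ, 1.91 ± 0.52 in transplanted µ, 1.08 ± 0.69 in adult control µ and 0.64 ± 0.42 in P10 TAµ. It was the member with the reverse order, both transplanted fractions above both controls, without a call. The largest of its differences, transplanted TAµ minus P10 TAµ, was 1.60 ± 0.80 (adjusted p = 0.15) in the authors' deposited table, with a 95% interval from -0.08 to 3.28.

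Levels in both transplanted fractions fell below those in both controls for 5 of the 8 members (Klf2, Klf4, Klf6, Klf7 and Klf10), a pattern that 24.6% of all genes had. Adult control µ was the highest group for 5 members (Klf2, Klf4, Klf6, Klf7 and Klf13), against 24.7% of all genes. Klf9 alone had both transplanted fractions above both controls, against 16.5% of all genes. These counts order fitted levels, whether or not the neighbours differed, and were not tested.

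**Figure D2:**
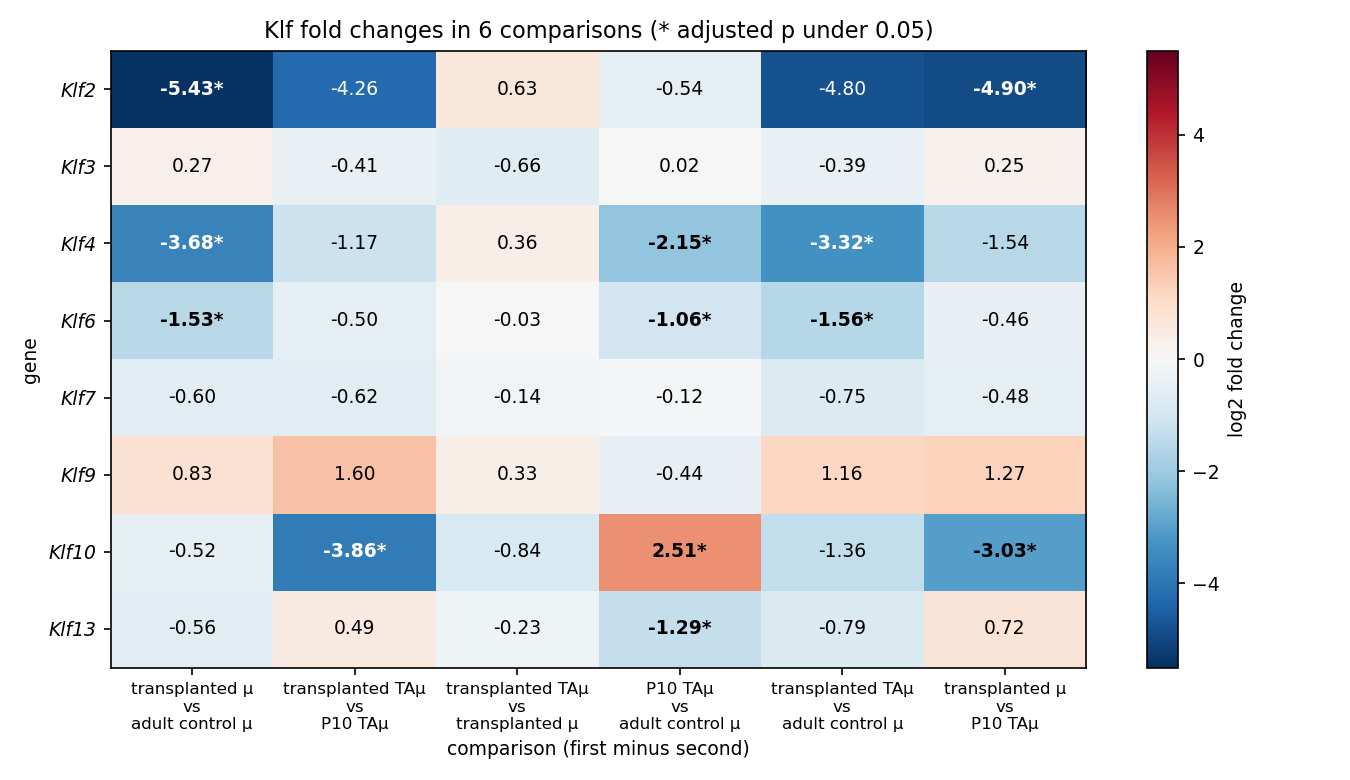
Log2 fold change of each Klf gene (rows) in each of 6 comparisons (columns, first-named minus second-named group), coloured from blue for lower to red for higher, with an asterisk where the adjusted p is under 0.05 in the authors' deposited table. Of the 48 values 12 carry an asterisk, and the comparison of transplanted TAµ with transplanted µ carries none.

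Transplanted µ against adult control µ asks what distinguishes the µ fraction after transplantation. Of the 8 members 3 were lower in the authors' deposited table (Klf2, Klf4 and Klf6), against 10.5% of all genes, and 0 were higher, against 11.3%. At an unadjusted limma p of 0.05, 4 members passed, Klf7 being the addition, with no share of all genes counted at that cut. The median of the 8 was -0.58 and that of all genes 0.19 in the authors' deposited table. Higher genes made up 52.0% of all calls and 37.7% once fold changes were centred on that median. After centring 4 members were lower, Klf7 included, against 12.9% of all genes. The groups differ in treatment, the age of the transplanted mice is not in the labels, and a batch, were there one, cannot be told apart from the treatment.

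Transplanted TAµ against P10 TAµ sets the other fraction beside the control that shares its name. Here 1 of 8 members was lower (Klf10), against 15.3% of all genes, and 0 were higher, against 10.5%, in the authors' deposited table. Without adjustment 3 members (Klf2, Klf7 and Klf10) had a limma p under 0.05, with no share of all genes counted at that cut. The median was -0.56 for the members and -0.33 for all genes in the authors' deposited table. Higher genes made up 40.7% of all calls and 60.3% after centring, and the count of members stayed at 1. These groups differ in age and treatment together, and the effect of either cannot be told apart.

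Within the transplanted mice, TAµ was compared with µ. Whether these fractions were sorted from the same mice was not taken into account, and the standard errors treat their libraries as independent. Limma called 0 of 8 members in the authors' deposited table, against 3.56% of all genes higher and 2.93% lower in transplanted TAµ. There 1 member (Klf3) had an unadjusted limma p under 0.05, with no share of all genes counted at that cut. The members' median was -0.08 and that of all genes -0.02 in the authors' deposited table. For Klf2, Klf4, Klf9 and Klf10 the standard errors were 0.82 or more, so that differences of a log2 unit would not have been detectable in them. The other members had smaller standard errors, from 0.24 (Klf3) to 0.45 (Klf13). Whether a log2 unit would have been called in those members was not worked out.

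The controls themselves, P10 TAµ and adult control µ, gave more calls among the members than each of the other 5 pairs. Of the 8 members 1 was higher in P10 TAµ (Klf10) in the authors' deposited table, against 23.2% of all genes, and 3 were lower (Klf4, Klf6 and Klf13), against 12.5%. The median was -0.49 for the members and 0.41 for all genes in the authors' deposited table. Higher genes made up 65.0% of all calls and 40.1% after centring, when 4 members were lower, Klf7 included, against 20.3% of all genes. Age and fraction differ together between these groups and cannot be told apart.

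The remaining pairs cross the fractions. Transplanted TAµ against adult control µ had 2 of 8 members lower (Klf4 and Klf6), against 13.4% of all genes, and 0 higher, against 16.7%, in the authors' deposited table. Transplanted µ against P10 TAµ had 2 members lower (Klf2 and Klf10), against 12.6% of all genes, and 0 higher, against 7.63%, in the authors' deposited table. At an unadjusted limma p under 0.05 the former had 4 members and the latter 5, with no share of all genes counted at that cut. In the latter comparison the median of all genes was -0.29 in the authors' deposited table, and higher genes made up 37.6% of all calls and 62.0% after centring. Centring ended the call of Klf2 there (-4.60 ± 1.67, adjusted p = 0.0546) and added Klf3 (0.54 ± 0.17, adjusted p = 0.0266) and Klf13 (1.02 ± 0.32, adjusted p = 0.0297) as higher. The centred counts there were 2 members higher, against 14.2% of all genes, and 1 lower, against 8.7%. Transplanted TAµ against adult control µ had 3 members lower after centring, Klf7 included, against 14.6% of all genes. All 6 comparisons draw on the same 4 groups, so they are not independent of each other. Bonferroni adjustment ended 11 of the 12 calls, Klf4 in P10 TAµ against adult control µ being the exception.

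**Figure D3:**
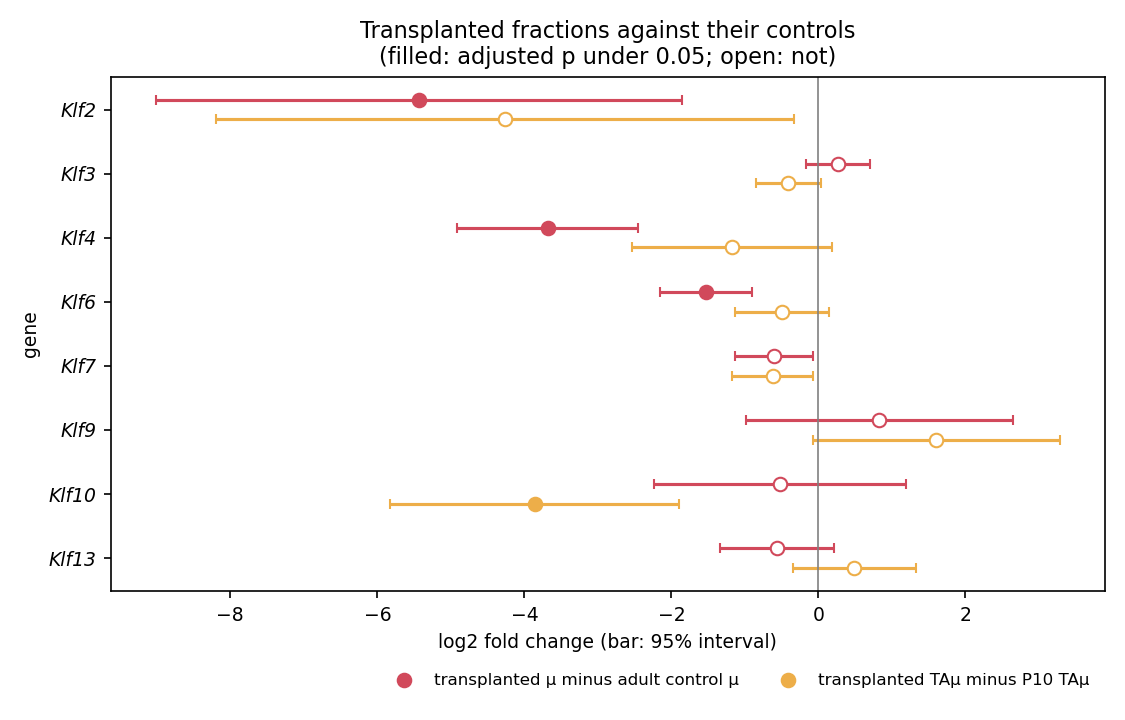
Log2 fold change of each Klf gene (y axis) for transplanted µ minus adult control µ (red) and transplanted TAµ minus P10 TAµ (yellow), with bars for the 95% interval and filled points for an adjusted p under 0.05. Klf2, Klf4 and Klf6 are filled in the µ comparison and Klf10 in the TAµ comparison.

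Whether the transplanted fractions departed from their controls by unequal amounts was tested as a difference of differences, TAµ minus µ, with standard errors recovered for 13768 genes. It was called for 0 of 8 members, against 13.4% of all genes tested, and 4 members had an unadjusted p under 0.05, against 29.5%. Klf4 fell further from its control in µ (-3.68) than in TAµ (-1.17), a difference of 2.51 ± 0.87 (adjusted p = 0.0641). Klf6 differed by 1.03 ± 0.43 (adjusted p = 0.116) in the same direction. Klf10 went the other way, from -0.52 in µ to -3.86 in TAµ, a difference of -3.34 ± 1.24 (adjusted p = 0.0822). Klf3 differed by -0.68 ± 0.30 (adjusted p = 0.134). Klf2, with the largest falls in both, differed by 1.17 ± 2.53, and its 95% interval from -4.15 to 6.49 leaves the size of any difference undetermined. The median of this difference over all genes was -0.50. Centred on it, Klf4 (3.02 ± 0.87, adjusted p = 0.0322) and Klf6 (1.54 ± 0.43, adjusted p = 0.0267) passed. No share of all genes was counted after this centring, so these calls have no background beside them. Since the controls differ in age and fraction, this difference carries the step between the controls too. Its standard errors also treat the transplanted fractions as independent.

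Of the 9 other Klf genes looked for, 4 were measured. Klf15, a glucocorticoid target in muscle and liver, had levels of 1.41 ± 0.67 in adult control µ, -0.82 ± 0.48 in P10 TAµ, -1.70 ± 0.85 in transplanted µ and -4.62 ± 1.13 in transplanted TAµ, the last at the floor of the scale. In the authors' deposited table it was lower than in adult control µ by -3.12 ± 1.08 in transplanted µ (adjusted p = 0.0478), -6.03 ± 1.31 in transplanted TAµ (adjusted p = 0.00245) and -2.23 ± 0.83 in P10 TAµ (adjusted p = 0.0435). Its average log2 expression of -1.25 lies below the first quartile over all genes (0.88), and these sizes are uncertain for that reason.

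Klf11, the closest relative of Klf10, was also highest in P10 TAµ, at 4.58 ± 0.17, against 3.04 ± 0.52 in adult control µ, 2.46 ± 0.80 in transplanted TAµ and 2.32 ± 0.60 in transplanted µ. The authors' deposited table has it higher in P10 TAµ than it is in adult control µ, by 1.54 ± 0.54 (adjusted p = 0.0351), and lower in transplanted µ than it is in P10 TAµ, at -2.26 ± 0.62 (adjusted p = 0.0153). Klf12, a repressor, was higher in transplanted µ than in P10 TAµ, at 1.74 ± 0.46 (adjusted p = 0.0117), and Klf16 was not called, in the authors' deposited table. Of the 9 Sp genes 5 were measured, and Sp1, Sp2 and Sp4 were called in no comparison of the authors' deposited table. In the authors' deposited table Sp3 was higher than in P10 TAµ by 0.62 ± 0.18 in transplanted TAµ and 0.46 ± 0.15 in transplanted µ. Sp9, at a low average log2 expression of -1.94, was in the authors' deposited table higher in P10 TAµ than it was in adult control µ by 3.19 ± 1.18 (adjusted p = 0.0432).

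The 10 cofactors through which Krüppel-like factors act were all measured. In transplanted TAµ against P10 TAµ 0 were higher and 1 lower, against 10.5% and 15.3% of all genes, in the authors' deposited table. In transplanted µ against P10 TAµ 0 were higher and 1 lower, against 7.63% and 12.6%. In P10 TAµ against adult control µ 1 was higher and 0 lower, against 23.2% and 12.5%. The remaining comparisons had 0 calls. The histone deacetylase gene Hdac2 was lower than in P10 TAµ by -1.07 ± 0.25 in transplanted TAµ (adjusted p = 0.0052) and -0.90 ± 0.21 in transplanted µ (adjusted p = 0.00481) in the authors' deposited table. Sap30, a subunit of the Sin3 complex, differed between the controls in the authors' deposited table, where P10 TAµ was higher by 2.16 ± 0.68 (adjusted p = 0.0199). Ctbp1, Ctbp2, Sin3a, Sin3b, Hdac1, Ep300, Crebbp and Kat2b were called in none of the 6 comparisons of the authors' deposited table.

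Among 10 regulators of Klf genes and proteins, all measured, 2 were higher and 1 lower in transplanted µ than in adult control µ in the authors' deposited table, against 11.3% and 10.5% of all genes. In the authors' deposited table Nr3c1, the glucocorticoid receptor gene, was higher by 0.82 ± 0.19 (adjusted p = 0.00757) and Wwp1, a ubiquitin ligase that acts on Klf2 and Klf5 proteins, by 1.09 ± 0.30 (adjusted p = 0.0158). Map2k5, the kinase gene upstream of Mapk7 in the pathway that induces Klf2 and Klf4 through Mef2 factors in endothelium, was lower, at -3.54 ± 0.94 (adjusted p = 0.0135), in the authors' deposited table. In transplanted TAµ against P10 TAµ, Wwp1 was higher by 1.48 ± 0.20 and Nr3c1 by 1.26 ± 0.19, and Mapk7 was lower, at -1.84 ± 0.64 (adjusted p = 0.0422), in the authors' deposited table. Wwp1 was also higher in transplanted TAµ than in transplanted µ, at 1.80 ± 0.25 (adjusted p = 0.000443), in the authors' deposited table. Between the controls, Mef2a (-1.07 ± 0.17) and Mef2d (-1.01 ± 0.18) were lower in P10 TAµ, and Wwp1 (1.40 ± 0.26) and Mef2c (0.70 ± 0.17) were higher, in the authors' deposited table.

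Glucocorticoid-induced genes were counted because several Klf genes belong to that response. Of 8 genes, all measured, 7 were lower in transplanted µ than in adult control µ in the authors' deposited table, against 10.5% of all genes, with a median of -3.01 against 0.19. Dusp1, a phosphatase gene that ends MAP kinase signals, was lower, at -3.93 ± 0.56 (adjusted p = 0.000273), as was Zfp36, which speeds the decay of cytokine mRNAs, at -3.45 ± 0.47 (adjusted p = 0.000197), in the authors' deposited table. Between the controls 7 of the 8 were also lower in P10 TAµ, against 12.5% of all genes, with the smallest adjusted p in the clock gene Per1 (-2.56 ± 0.38) and Tsc22d3, or GILZ (-2.39 ± 0.37), in the authors' deposited table. In transplanted TAµ against P10 TAµ 2 were lower in the authors' deposited table, against 15.3% of all genes, Dusp1 (-2.70 ± 0.61) and Zfp36 (-3.27 ± 0.48), both of which also stand on the immediate early list.

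Immediate early genes, which stimuli switch on within minutes, are a class that Klf2, Klf4, Klf6 and Klf10 are often counted with. Of 20 genes 15 were lower in transplanted µ than in adult control µ in the authors' deposited table, against 10.5% of all genes, with a median of -3.27. The smallest adjusted p were those of Egr1 (-4.60 ± 0.33) and Jun (-3.81 ± 0.38) in the authors' deposited table. Against P10 TAµ, transplanted TAµ had 12 lower and 2 higher, Nr4a3 (3.46 ± 0.80) and Fosl2 (1.36 ± 0.44), in the authors' deposited table, where 15.3% of all genes were lower and 10.5% higher. Between the controls 9 were lower and 1 higher in P10 TAµ in the authors' deposited table, against 12.5% and 23.2% of all genes. Their part in the levels of the Klf genes was not tested.

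Of 12 genes reported downstream of Krüppel-like factors, 10 were measured, and these did not move one way. In transplanted µ against adult control µ 1 was higher and 2 lower, against 11.3% and 10.5% of all genes, in the authors' deposited table. In transplanted TAµ against P10 TAµ 3 were higher and 2 lower, against 10.5% and 15.3%. For transplanted µ against adult control µ, the authors' deposited table has the cell cycle inhibitor gene Cdkn1a higher by 3.84 ± 0.51 (adjusted p = 0.000175), whereas the arginase gene Arg1 was lower by -5.58 ± 0.95 (adjusted p = 0.000892) and Smad7, an inhibitor of TGF-beta signals that Klf10 is known to repress, by -2.58 ± 0.64 (adjusted p = 0.00976). In transplanted TAµ against P10 TAµ the thrombomodulin gene Thbd, a Klf2 target in endothelium, was higher by 3.68 ± 0.75 and the sphingosine phosphate receptor gene S1pr1, a Klf2 target in T lymphocytes, by 1.59 ± 0.38 in the authors' deposited table. Arg1 (-4.28 ± 1.03) and Cdkn1a (-1.35 ± 0.49) were lower there in the authors' deposited table.

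**Figure D4:**
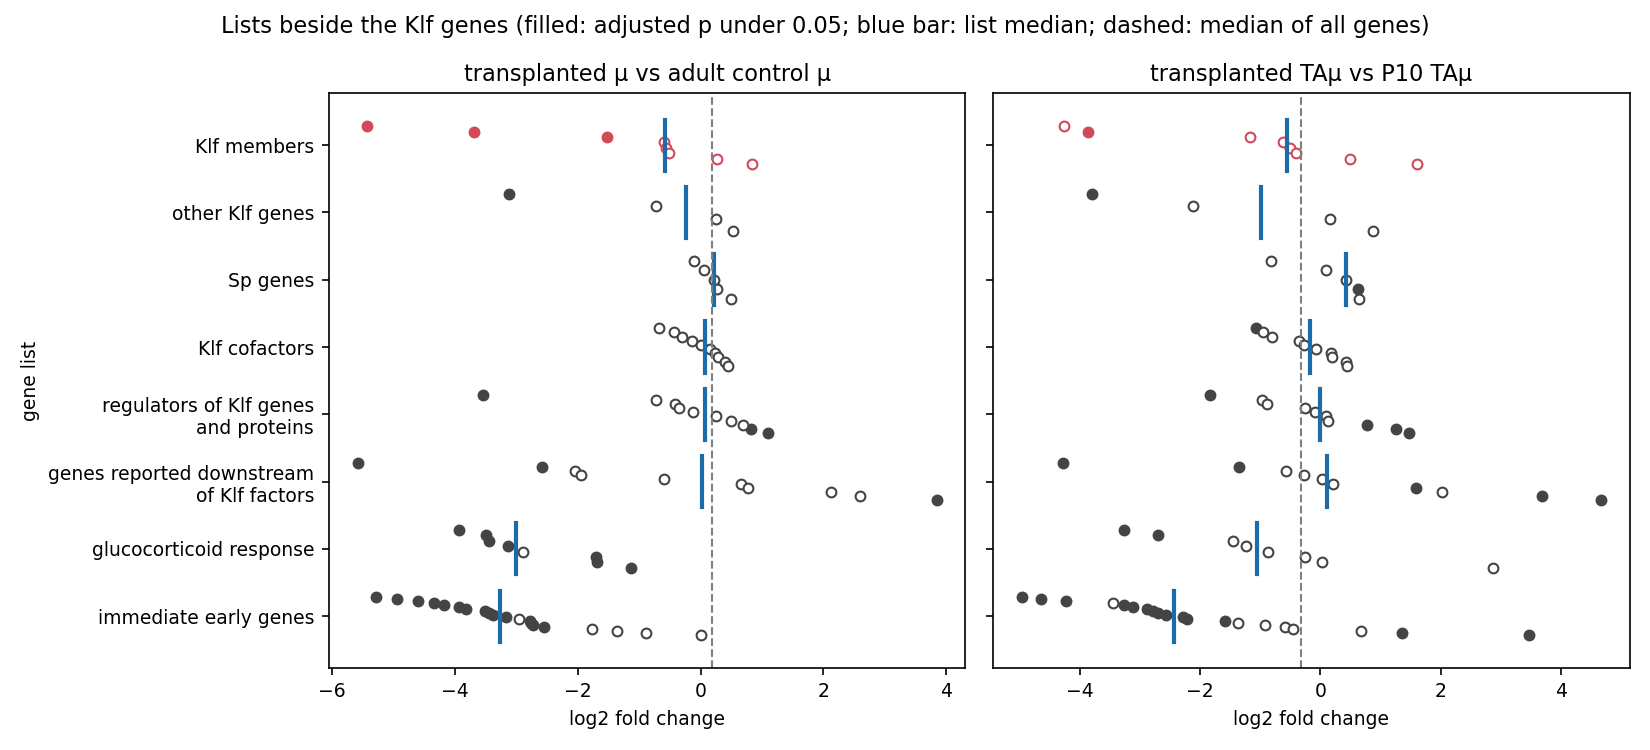
Log2 fold change (x axis) of the measured genes of the Klf members and 7 other lists (y axis) in transplanted µ against adult control µ (left) and transplanted TAµ against P10 TAµ (right), with filled points for an adjusted p under 0.05, a blue bar for the list's median and a dashed line for the median of all genes. The immediate early list has its median at -3.27 on the left and -2.43 on the right, and the cofactors lie close to the dashed line.

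Markers of the sorted cells and of others were read on the same scale, as sums of linear levels over the measured genes of a list. The 8 microglia markers were all measured, none lay near the floor, and they summed to 12800 in adult control µ, 17400 in transplanted µ, 8940 in transplanted TAµ and 14300 in P10 TAµ, so the labelled myeloid identity has its markers in every group. Of these markers 5 were lower in transplanted TAµ than in P10 TAµ in the authors' deposited table, against 15.3% of all genes. Klf10 was lower in the same comparison, and any link between it and the markers was not tested. Compared with transplanted µ, 7 were lower in transplanted TAµ in the authors' deposited table, against 2.93% of all genes. Sall1 (-3.31 ± 0.35) and P2ry12 (-1.72 ± 0.31) were among them, and none of the Klf members was called there. In endothelial cells Klf2 and Klf4 are known to be strongly expressed. Of 10 endothelial markers 7 were measured and summed to 21.0, 19.9, 11.1 and 33.0 in the same order. Slco1c1 in adult control µ and Vwf in transplanted TAµ lay near the floor, which was found in transplanted TAµ and applied to all groups. Of these 7 endothelial markers 1 was higher in transplanted µ than in adult control µ, Slco1c1 by 5.34 ± 0.83, against 11.3% of all genes, in the authors' deposited table. The other 6 were not called, from -1.09 ± 1.33 (Kdr) to 2.48 ± 1.11 (Flt1), in the authors' deposited table. The part of endothelial cells in the levels of Klf2 and Klf4 was not tested. Of 8 neutrophil markers 6 were measured and summed to 519 in adult control µ, 207 in transplanted µ, 81.1 in transplanted TAµ and 25.7 in P10 TAµ. The authors' deposited table has 5 of them lower in P10 TAµ when set beside adult control µ, against 12.5% of all genes. Of 8 monocyte markers 6 were measured and summed to 7.10, 20.3, 259 and 21.3 in the order adult control µ, transplanted µ, transplanted TAµ and P10 TAµ. The monocyte markers moved apart in transplanted TAµ against P10 TAµ, with Itga4 (5.00 ± 0.47), Ms4a4c (4.16 ± 0.83) and Ccr2 (2.53 ± 0.53) higher and Vcan (-3.87 ± 1.33) lower in the authors' deposited table. Plac8 (-2.14 ± 1.35) and Fn1 (-2.77 ± 1.25) were not called in the authors' deposited table. In the same order, astrocyte markers (8 of 8 measured) summed to 424, 1800, 3690 and 326, neuron markers (8 of 8) to 15.3, 126, 171 and 38.8, and oligodendrocyte markers (8 of 8) to 143, 854, 1640 and 114. Erythroid (4 of 8 measured), T and NK (2 of 8) and B cell markers (2 of 6) summed to at most 42.4 in any group. In adult control µ, Plac8 (monocyte), Gad1 (neuron), Cldn11 and Olig2 (oligodendrocyte) and Hba-a1 and Hba-a2 (erythroid) also lay near that floor. The sums of the astrocyte, neuron and oligodendrocyte lists were highest in the transplanted fractions. Against adult control µ, transplanted µ had 5 astrocyte, 5 neuron and 3 oligodendrocyte markers higher in the authors' deposited table, against 11.3% of all genes. Transplanted TAµ had 6 of each list higher, against 16.7%, and 0 were lower in either fraction. Neuron and oligodendrocyte markers did not all move together in transplanted µ against P10 TAµ. Snap25 was higher there (3.44 ± 0.38) in the authors' deposited table. Tubb3 (-3.24 ± 0.88) and Stmn2 (-1.76 ± 0.55) were lower there in the authors' deposited table. Mobp (4.05 ± 0.65) and Mbp (3.07 ± 0.48) were higher there and Cldn11 (-3.15 ± 0.85) lower in the authors' deposited table. The part of these lists in the Klf levels was not tested.

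The genes whose 4 group levels ran closest to those of each member called by F were found by the distance between levels relative to each gene's own mean, over 3618 genes of at least median expression that F also called. Nearest to Klf2 were the immediate early gene Egr1, at a distance of 1.16 log2 units, and Zfp36 at 1.57. The profile of Egr1, at 2.76, -1.84, -2.78 and 1.86 in adult control µ, transplanted µ, transplanted TAµ and P10 TAµ, stood beside 2.69, -2.74, -2.11 and 2.16 for Klf2. Klf4 was nearest to the phosphatase gene Ptp4a1 (0.42) and to Agxt2l2 (0.48). Klf6 was nearest to Gga3, a Golgi sorting adaptor, and Smg1, a kinase of nonsense-mediated decay, both at 0.11. Klf10 was nearest to the apolipoprotein gene Apob (0.81) and to the cathepsin gene Ctsl (0.89). Klf13 was nearest to the kinase genes Lrrk1 (0.10) and Pik3cb (0.11). For every member these distances were smaller than its largest standard error of a level, such as 1.86 for Klf2 in transplanted TAµ. Which genes lie nearest is therefore uncertain. A distance over 4 groups is a description of these levels, with no test.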

How the data were processed

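RNA of sorted brain myeloid cells (100 ng per sample) was amplified and sequenced as single-end reads of 50 cycles, per the labels' protocols. The tools named are STAR 2.3.0, HTSeq 0.5.3 and limma and the build is mm10, per the submitters' processing notes. The sources used here give neither the normalization nor the gene filter, annotation or strand setting. The authors' deposited table holds log2 average expression and log2 fold changes, p-values with their adjusted p-values (Benjamini-Hochberg), and a score per gene (the moderated F, and a call), per the file headers. It has 0 columns of values per library, so depth per library was not analysed here. The sign of the fold changes, not given in the headers, was set from 4 proliferation genes, which were higher in P10 TAµ (Mki67 by 5.27).

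Standard errors were recovered in Python 3.11.15 (scipy 1.17.1) from the size of a fold change and its p-value. The t distribution used had 18 degrees of freedom, the number that reconciled F with its p-value in 9369 genes. Variances per group were solved from these, and sums of them divided by the squared standard errors gave 0.9999 (1st percentile) to 1.0001 (99th percentile). The method was also run on simulated data in which most genes had equal group means, unlike here, and its outcome is not given. The test of the difference of differences used 13768 genes, and 1 gene gave no variance. Levels were placed on the log2 scale by taking the average expression as the mean over 17 libraries, an addition made after the table was seen. With that weighting 575 genes of transplanted TAµ lay within 0.1 of a common floor of -4.59, against 35 with equal weights for the 4 groups. The members and gene lists were chosen with earlier results of these data known. The rule for naming genes was all 8 members and, from each list, at most 2 in each direction of a comparison, those with the smallest adjusted p, plus the other measured Klf and Sp genes. Beyond this rule, uncalled cofactors, the genes nearest by level and further marker genes are named, the markers to show how their lists spread. Alternatives were a threshold of 0.01, a log2 fold change of at least 1, Bonferroni adjustment, an expression filter at the first quartile (0.88), centring on the median and 13 degrees of freedom.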

Additional observations from a re-analysis of the deposited data

How the results depend on the processing

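Of the 12 member calls, 2 (both of Klf2) were lost at a threshold of 0.01 and 11 under Bonferroni adjustment. At 0.01, transplanted µ against P10 TAµ had 1 member called and F called 3. Bonferroni adjustment left 0 members in transplanted µ against adult control µ, 0 in transplanted TAµ against P10 TAµ, 1 in P10 TAµ against adult control µ, 0 in transplanted TAµ against adult control µ, 0 in transplanted µ against P10 TAµ and 0 by F. Bonferroni adjustment is stricter by its construction. Centring on the median fold change added 5 member calls over the 6 comparisons (Klf7 in 3, Klf3 and Klf13) and ended 1, that of Klf2 in transplanted µ against P10 TAµ. For the difference of the transplant effects it gave 2, with no share of all genes counted after centring. It reversed the sign of Klf3 in P10 TAµ against adult control µ (-0.39) and of Klf7 in the difference of the transplant effects (0.49), neither of which passed a test. A minimum log2 fold change of 1 and the expression filter at the first quartile changed no call of a member, and 13 degrees of freedom changed none for the difference of the transplant effects. The counts of the 7 gene lists over 6 comparisons moved by more than 1.5 times in 33 of 42 cases under Bonferroni adjustment, in 14 at 0.01, in 10 with the expression filter, in 6 with the minimum fold change and in 5 with centring. Leaving out each library in turn was not run because only comparisons were deposited. No paired analysis was possible because the table used here holds no values per library. Precision was best in Klf3 and poorest in Klf2 in the transplanted fractions, by their standard errors, and the part of depth in this was not measured.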
